A study of Mus musculus with 6 samples.

Results

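NRF2, encoded by Nfe2l2, is a transcription factor that switches on antioxidant and detoxifying genes. KEAP1 holds it in the cytoplasm and marks it for degradation until oxidants or electrophiles modify KEAP1, and NRF2 then binds antioxidant response elements together with small MAF proteins. Its best-known targets make and recycle glutathione and keep the thioredoxin cycle running, the main thiol systems by which cells reduce peroxides and oxidised proteins. The 10 genes described here are Nfe2l2 and Keap1, the quinone reductase gene Nqo1, the glutathione genes Gclc, Gclm and Gsr, and the thioredoxin cycle genes Txnrd1, Txn1, Prdx1 and Srxn1. They were picked by symbol from the 35688 gene rows of the deposited table, each matched 1 row, and all 10 passed the abundance filter, which kept genes averaging 1 TPM or more.

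All libraries were made from the mouse cell line m1102, derived from ovarian surface epithelium, the layer that covers the ovary and is torn at ovulation. Poly(A)-selected RNA was sequenced from 3 samples of cells that had received TGFB1 at 10 ng/mL for 4 days and from 3 samples of untreated cells. Both groups grew in the same medium, an alpha-MEM with 4% FBS, EGF at 2 ug/mL and the supplement ITSS at 0.01 mg/mL. TGFB1 is a cytokine that induces matrix genes and mesenchymal traits in epithelia, and the comparison asks how these genes stood after that exposure. The labels name a single line and do not say that the samples were separately treated cultures, so the p-values reflect sample-to-sample spread that may be only technical. Abundances are on the TPM scale, which corrects for transcript length, and are called TPM below. The read depth is unknown, so no counting error can be given.

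Of the 10 genes, 7 differed between the groups at an adjusted p under 0.05 (limma on log2(TPM + 1), Benjamini-Hochberg over 12257 tested genes). Txnrd1 and Gsr, the reductases that recycle thioredoxin and glutathione, rose. Nfe2l2, Nqo1, Gclc, Gclm and Prdx1 fell, and Keap1, Txn1 and Srxn1 did not pass. Of all tested genes 30.4% were called, 15.8% higher and 14.6% lower. The median log2 fold change was -0.22 over the 10 genes and 0.02 over all tested genes. For 8 of the 10 genes the TGFB1 and untreated values did not overlap, 2 higher and 6 lower with TGFB1, and the same held for 49.8% of all tested genes, 26.3% higher and 23.6% lower. The calls of Txnrd1, Gsr and Gclm held in all 16 alternative fits, and the other 4 were each lost in 5 or more of them. With a library left out, the number that fell was 5 without TGFB1 replicate 1, 2 without TGFB1 replicate 2 or 3, 3 without untreated replicate 2 and 1 without untreated replicate 1 or 3.

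The TGFB1 libraries were not alike, since replicate 1 scored 46.6 on the first principal component against 20.2 and 18.1 for replicates 2 and 3, with untreated libraries from -29.8 to -27.1. Column totals were 983434 to 987121 in TGFB1 libraries and 1006783 to 1026702 in untreated ones. After rescaling without mitochondrially encoded and the 20 most abundant genes, 62% of all calls were higher, against 52% as deposited. Of 12 listed ovarian surface epithelium markers 8 passed the filter and 4 of those fell, with a summed level of 1224 to 1676 TPM in TGFB1 libraries and 2201 to 2249 TPM in untreated ones. For this and the marker counts below, the shares over all tested genes were 14.6% lower and 15.8% higher. Cdh1, Krt8 and Lhx9 were below 1 TPM in both groups. The 6 endothelial markers summed to 1.78 to 2.35 TPM in TGFB1 and 1.17 to 1.33 TPM in untreated libraries. The 7 immune markers summed to 7.91 to 10.9 and 18.7 to 26.8 TPM, nearly all of it Cd68, with Ptprc at 0.0447 and 0.0739 TPM. Of 8 fibroblast markers 6 were tested, 1 rose and 2 fell, and the sums were 1003 to 1115 and 1712 to 1943 TPM. Col1a1 rose (means of 161 and 6.74 TPM), and Dcn (616 and 1362 TPM) and Thy1 (90.9 and 288 TPM) fell. Of 7 granulosa and theca markers 3 were tested, 2 rose and 1 fell, and the sums were 152 to 253 and 340 to 385 TPM. Foxl2 (22.7 and 18.5 TPM) and Inhbb (49.7 and 39.9 TPM) rose, and Star (143 and 300 TPM) fell. From the immune markers on, TGFB1 values are given first and untreated values second. The part of these shifts in the results below was not tested. In bulk RNA, fewer cells of a type and less RNA per cell cannot be told apart.

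The promoters of the genes are shown first because NRF2 acts through a short element, of which the letters TGACNNNGC are the core. RefSeq promoter windows of GRCm38.p6, from 250 bases before to 50 after an annotated start, were held for 8 of the 10 genes in 10 windows, 3 of them for Txnrd1. The core was searched on both strands and found in 5 windows, those of Nfe2l2, Gclm, Txnrd1 (at the second of its starts), Srxn1 and Prdx1. Of all 32851 windows 12.4% held it, and of 11439 windows of tested genes 14.2%. Of the 5 genes with the core in a window 3 fell, 1 rose and 1 was not called. Of the 3 with none in their window (Keap1, Nqo1 and Txn1) 1 fell and 2 were not called. The shares over all tested genes were 14.6% lower and 15.8% higher, and a link between core and call was not tested. Sequence outside the windows was not searched, so absence there does not mean that a gene lacks the element. The stretches upstream of the start are printed below for the 4 genes that were called and held the core, so that the element can be seen in genes that fell and in the one that rose. They lie at chr2:75704664-75704913 (minus strand), chr3:122245307-122245556 (plus strand), chr10:82858956-82859205 (plus strand) and chr4:116685349-116685598 (plus strand). Each runs 5′ to 3′ toward the start, and capitals mark the core on either strand.
Nfe2l2: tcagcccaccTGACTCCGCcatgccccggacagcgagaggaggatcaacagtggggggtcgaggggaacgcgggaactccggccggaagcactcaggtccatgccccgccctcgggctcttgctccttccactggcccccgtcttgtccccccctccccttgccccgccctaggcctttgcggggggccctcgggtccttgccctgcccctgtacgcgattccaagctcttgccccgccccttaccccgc
Gclm: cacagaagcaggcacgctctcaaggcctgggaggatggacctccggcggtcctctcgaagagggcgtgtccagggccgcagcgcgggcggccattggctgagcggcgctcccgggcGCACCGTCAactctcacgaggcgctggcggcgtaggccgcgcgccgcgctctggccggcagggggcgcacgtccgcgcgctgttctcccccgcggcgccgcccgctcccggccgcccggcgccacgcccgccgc
Txnrd1: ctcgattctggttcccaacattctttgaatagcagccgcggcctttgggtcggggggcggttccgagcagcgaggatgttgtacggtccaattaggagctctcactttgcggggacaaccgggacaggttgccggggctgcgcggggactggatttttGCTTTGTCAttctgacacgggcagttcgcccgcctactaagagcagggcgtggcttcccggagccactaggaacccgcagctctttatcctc
Prdx1: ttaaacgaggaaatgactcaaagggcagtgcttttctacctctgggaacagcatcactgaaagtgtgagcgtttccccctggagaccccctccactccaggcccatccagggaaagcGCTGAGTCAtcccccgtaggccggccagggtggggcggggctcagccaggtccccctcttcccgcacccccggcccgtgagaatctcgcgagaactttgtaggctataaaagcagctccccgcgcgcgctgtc

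Counting the base at the start as 0, the core began at -240 in Nfe2l2, -134 in Gclm, -92 in Txnrd1, -133 in Prdx1 and 28 in Srxn1. The AP-1 motif TGANTCA, also searched on both strands, was in 7.81% of all windows and 5% of those of tested genes. Among the genes here the windows of Prdx1 and Srxn1 held it, each with 2 matches. One of the Prdx1 matches, at -131 to -125, lies inside the capitals printed above. The CAGA box CAGACA, a SMAD-binding sequence, was in 21% of all windows and 15.7% of those of tested genes. Among the genes here it was only in the window of Keap1. A match is a description of letters and not a measured site.

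**Figure D1:**
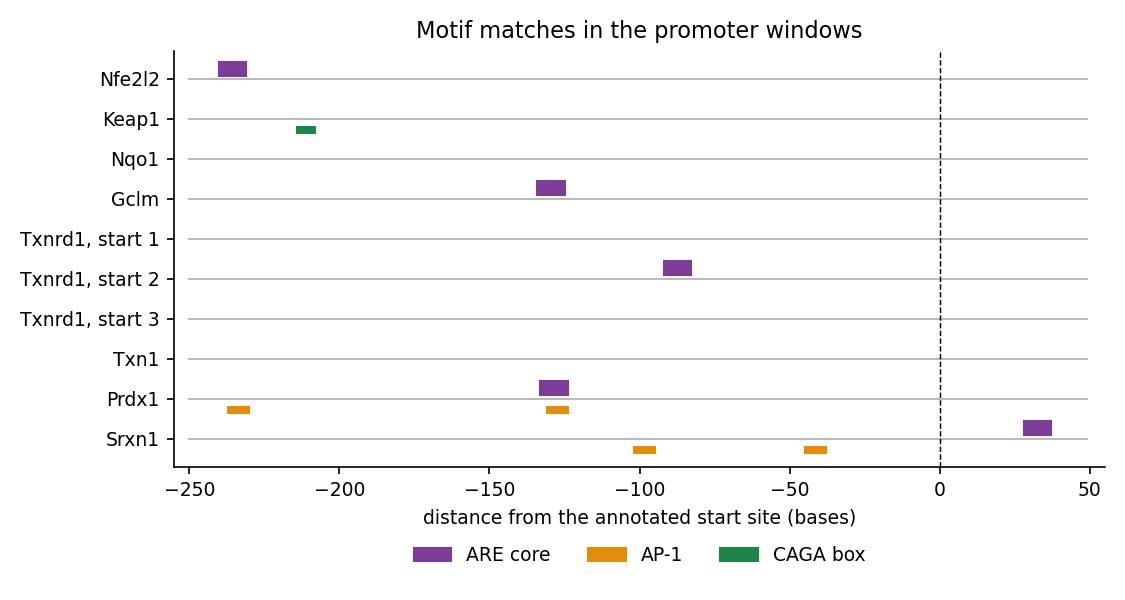
Matches of the antioxidant response element core (purple), the AP-1 motif (orange) and the CAGA box (green) in the promoter windows of 8 of the genes. The x axis is the distance in bases from the annotated start, each line is a window, and cores are seen in 5 of 10 windows, 4 of them upstream of the start.

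Nfe2l2, the gene of NRF2 itself, fell. It lies on chromosome 2 at 75675513 to 75704641 on the minus strand (GRCm38, GENCODE M21). Its abundance was 81.9, 115 and 114 TPM in TGFB1 libraries and 137, 144 and 140.5 TPM in untreated ones. All 3 treated values lay below all 3 untreated values, and TGFB1 replicate 1 was the lowest of them. The log2 fold change was -0.45 (SE 0.131, limma adjusted p = 0.0406), and it was -0.29 without TGFB1 replicate 1 (adjusted p = 0.00476). The call was lost without untreated replicate 1, 2 or 3 (adjusted p = 0.0953, 0.111 and 0.109), with no filter (0.0951), under quantile normalization (0.0521), after rescaling (0.0622) and without a variance trend (0.0559).

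Keap1, the adaptor that targets NRF2 for degradation, had 37.8, 34.0 and 35.1 TPM with TGFB1 and 40.0, 38.1 and 40.1 TPM without it. The groups did not overlap, yet the difference did not pass (log2 fold change -0.14, 95% interval -0.30 to 0.01, adjusted p = 0.146). Exons of Keap1 share 510 bases with Gm16754 on the other strand, and although the library kit marks strand, the sources used here do not say whether it was used in counting.

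Other genes that act on NRF2, a list of 17 with 16 tested, included 5 that rose and 0 that fell (limma; at an unadjusted p under 0.05 the counts were 6 and 0). Their median log2 fold change was 0.21, and over all tested genes 15.8% were called higher and 14.6% lower. The small MAF gene Maff averaged 36.4 ± 5.66 TPM in TGFB1 libraries and 27.6 ± 1.63 TPM in untreated ones (mean ± SD, n = 3 each here and below). Sqstm1, whose product p62 can displace NRF2 from KEAP1, averaged 639 ± 74.3 and 517 ± 15.6 TPM (TGFB1 and untreated). Syvn1 is a ubiquitin ligase gene of the endoplasmic reticulum, and its product can mark NRF2 for degradation. It averaged 42.0 ± 2.10 TPM with TGFB1 and 33.6 ± 2.21 TPM without. The list mixes genes that favour NRF2 with genes that oppose it, so its counts give no direction for NRF2 activity. Nfe2l1, the NRF1 factor of the same family, averaged 167 ± 6.09 TPM with TGFB1 and 142 ± 10.7 TPM without, and Dpp3, outside the naming rule and named because it completes the count, rose by a log2 fold change of 0.21. These rises sat close to the threshold. Only 1 of the list was higher under median-of-ratios scaling, without a variance trend, or without untreated replicate 1 or 2, 2 with no filter, 3 without TGFB1 replicate 2, and 0 without TGFB1 replicate 3 or untreated replicate 3 (6 and 5 at an unadjusted p under 0.05).

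Nqo1, which encodes a quinone reductase often used as a readout of NRF2 activity, fell. It was at 16.1, 15.3 and 14.0 TPM in TGFB1 libraries and 26.4, 17.8 and 31.2 TPM in untreated ones. The treated libraries were close together and the untreated ones spread widely, with coefficients of variation of 6.80% and 26.9%. The groups did not overlap, and the gap was narrow at untreated replicate 2. The log2 fold change was -0.66 (SE 0.189, adjusted p = 0.0381). It was -0.88 without untreated replicate 2, and the call was lost without TGFB1 replicate 2 or 3 or untreated replicate 1 or 3, or when low genes were kept in (adjusted p = 0.0842 to 0.113).

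**Figure D2:**
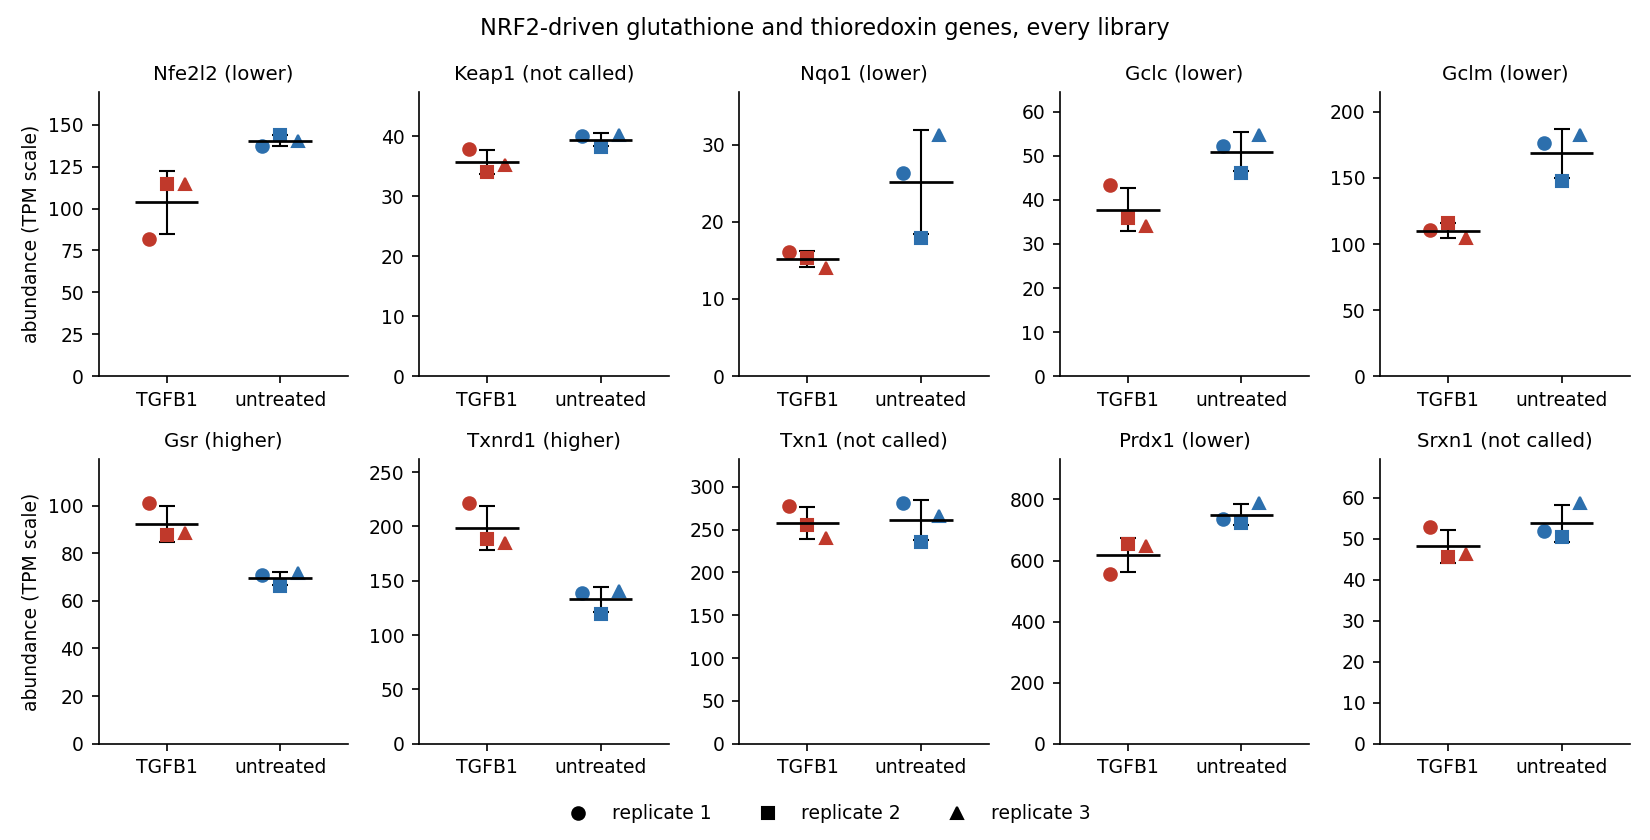
Abundance (TPM scale, linear axis from 0) of each of the 10 genes in 3 TGFB1 libraries (red, left) and 3 untreated libraries (blue, right); symbols are replicates, bars the group mean and whiskers 1 SD. Txnrd1 and Gsr are higher with TGFB1 in every library, Gclm is at 104 to 116 TPM with TGFB1 and 147 to 182 TPM without, and Txn1 overlaps.

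Glutathione is made in a rate-limiting step by glutamate-cysteine ligase, whose catalytic subunit is encoded by Gclc and whose modifier subunit, which raises the enzyme's activity, by Gclm. Gclm (chromosome 3 at 122245557 to 122270732, plus strand) had 111, 116 and 104 TPM in TGFB1 libraries and 176, 147 and 182 TPM in untreated ones. Every treated library was lower, a mean of 110.2 ± 5.69 TPM with TGFB1 and 169 ± 18.6 TPM without. The log2 fold change was -0.61 (SE 0.0919, adjusted p = 0.00449), with values from -0.70 to -0.55 and a highest adjusted p of 0.0228 when a library was left out. Of the 31-base words of its transcripts, 5.61% occur in another gene, 3.55% in Ppia, which averaged 4410 TPM over the libraries, and how much of the Gclm level this touches was not tested. Its exons also share 296 bases with Gm17494 on the other strand and 244 with the pseudogene Gm6061 on the same strand, which stood at 3.66 TPM.

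Gclc was at 43.3, 35.97 and 34.1 TPM with TGFB1 and at 52.2, 46.1 and 54.6 TPM without. The groups did not overlap, and the log2 fold change was -0.43 (SE 0.109, adjusted p = 0.0271). That call was lost without TGFB1 replicate 2 or 3 or untreated replicate 1 or 3, or when low genes were kept in (adjusted p = 0.0617 to 0.0965). Within each library Gclm was more abundant than Gclc, by a ratio of 2.55, 3.21 and 3.06 in TGFB1 libraries and 3.38, 3.20 and 3.34 in untreated ones. These ratios overlapped between the groups.

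Gsr, the gene of glutathione reductase, which returns oxidised glutathione to its reduced form with NADPH, rose. The gene is on the plus strand of chromosome 8, from 33652523 to 33698163. Its abundance was 101, 87.4 and 88.4 TPM in TGFB1 libraries and 70.7, 66.3 and 71.5 TPM in untreated ones. Every treated value exceeded every untreated one, and TGFB1 replicate 1 was the highest. The log2 fold change was 0.40 (SE 0.0751, adjusted p = 0.00913), and without TGFB1 replicate 1 it was 0.34 (adjusted p = 0.00528). The ratio of Gsr to Gclc, which does not depend on scaling between libraries, was 2.33, 2.43 and 2.60 with TGFB1 and 1.35, 1.44 and 1.31 without. All 3 treated ratios lay above all 3 untreated ones. The pairs of genes in such ratios were chosen after their values were seen, and the ratios were not tested.

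**Figure D3:**
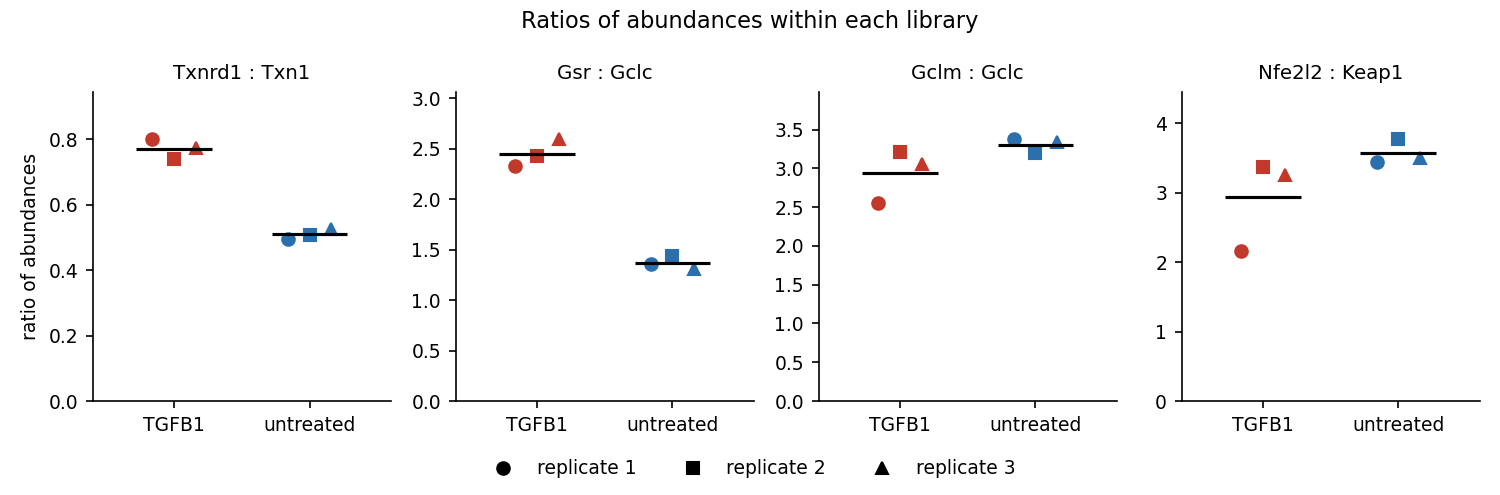
Ratios of abundances within each library for 4 pairs of genes (y axis, from 0), with TGFB1 libraries in red on the left, untreated libraries in blue on the right and group means as bars. Txnrd1 to Txn1 and Gsr to Gclc are higher in all TGFB1 libraries, at 0.74 to 0.80 and 2.33 to 2.60, while Gclm to Gclc overlaps.

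In the wider glutathione list, 32 of 35 genes were tested, and 14 fell and 5 rose (14.6% and 15.8% over all tested genes). The list's median log2 fold change was -0.32. Among the called genes, the largest changes were split between enzymes of like name. Mgst1, a membrane-bound glutathione transferase, averaged 262 ± 103 TPM with TGFB1 and 645 ± 54.9 TPM without, and Gstm1, a mu-class transferase, 9.58 ± 2.59 TPM with TGFB1 and 19.8 ± 1.35 TPM without. Mgst3 rose to 23.9 ± 4.76 TPM with TGFB1, against 10.7 ± 2.16 TPM without, and Gsto1, an omega-class transferase, to 503 ± 187 TPM, against 238 ± 17.8 TPM. Of the 11 transferase genes tested in this list 6 fell, 3 rose and 2 were not called. For Gstm1, 28.8% of 31-base words occur in another gene, so its level is uncertain. The Mgst1 call was lost without any of the 3 untreated libraries (adjusted p = 0.0520 to 0.0587), and that of Gsto1 without untreated replicate 1 or 2 (0.0604 and 0.0619) and with no filter (0.0527).

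Genes around glutathione synthesis itself, named for their role after their values were seen, moved differently from each other. Slc7a11, the cystine importer of system xc- and a known NRF2 target, was low in both groups, at 4.19, 3.51 and 3.32 TPM with TGFB1 and 2.10, 1.91 and 2.57 TPM without. It rose (log2 fold change 0.55, adjusted p = 0.0243, with 0.72 and 0.27 at a pseudocount of 0.1 and of 5), a call lost without TGFB1 replicate 2 or untreated replicate 1 or 2, with no filter and under quantile normalization (adjusted p = 0.0511 to 0.0742). Slc3a2, the gene of the other chain of system xc-, fell to 232 ± 2.69 TPM with TGFB1, against 341 ± 12.5 TPM without. Its log2 fold change was -0.55 (limma adjusted p = 0.000898). Gss, the glutathione synthetase gene, was at 25.4 ± 1.43 TPM with TGFB1 and 24.7 ± 1.04 TPM without (log2 fold change 0.04, adjusted p = 0.718). Chac1, which encodes an enzyme that breaks glutathione down, fell to 22.9 ± 3.91 TPM, against 42.9 ± 9.96 TPM (log2 fold change -0.87, adjusted p = 0.0135). Chac2, of the same enzyme family, rose to 15.8 ± 2.42 TPM, against 11.3 ± 0.809 TPM (log2 fold change 0.44, limma adjusted p = 0.0299). Only 9 genes of the list were lower without untreated replicate 1 and 7 without untreated replicate 3, and 2 were higher without untreated replicate 1 or 2 or with no filter and 3 under quantile normalization.

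In the thioredoxin cycle, thioredoxin reductase 1 passes electrons from NADPH to thioredoxin, which reduces peroxiredoxins and other proteins. Txnrd1, the reductase gene, rose and had the largest rise of the 10 genes. The gene is on the plus strand of chromosome 10, from 82833951 to 82897712. Its abundance was 222, 189 and 185 TPM in TGFB1 libraries and 139, 119.6 and 140.3 TPM in untreated ones. The lowest treated value stood well above the highest untreated one. The mean was 1.49 times as high, the log2 fold change 0.57 (SE 0.0962, adjusted p = 0.00625), and with a library left out it stayed between 0.49 and 0.62 (adjusted p up to 0.0226).

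Txn1, the thioredoxin gene that Txnrd1 serves, overlapped, at 277, 256 and 240.1 TPM with TGFB1 and 281, 235 and 266 TPM without. The log2 fold change was -0.017 (95% interval -0.22 to 0.19, adjusted p = 0.898), so a change of the size seen in Txnrd1 lies outside the interval. Its sign turned under quantile normalization (0.045), after rescaling (0.029) and without TGFB1 replicate 3 (0.032) or untreated replicate 1 (0.038). The ratio of reductase to substrate, Txnrd1 to Txn1, was 0.80, 0.74 and 0.77 in TGFB1 libraries and 0.49, 0.51 and 0.53 in untreated ones.

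Prdx1, a peroxiredoxin that reduces hydrogen peroxide, was the most abundant of the 10 genes in both groups and was at 556, 654 and 648 TPM with TGFB1 and 737, 723 and 789 TPM without. All treated values were lower, replicate 1 the lowest. The log2 fold change was -0.28 (SE 0.0781, adjusted p = 0.0362), the smallest among the called genes here. That call was lost in 9 of 16 alternatives. These were the fits without TGFB1 replicate 2 or 3 or any untreated replicate (adjusted p = 0.0535 to 0.123), with no filter (0.0868), under quantile normalization (0.136), after rescaling (0.0674) and without a variance trend (0.0586). Of the 31-base words of Prdx1 15.2% occur elsewhere, the largest part in Gm21399, which stood at 0.0687 TPM.

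Srxn1, the sulfiredoxin gene whose product repairs over-oxidised peroxiredoxins, had 52.8, 45.5 and 46.4 TPM with TGFB1 and 51.9, 50.6 and 58.8 TPM without. The groups overlapped and the difference did not pass (log2 fold change -0.15, 95% interval -0.36 to 0.05, adjusted p = 0.228).

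Of the other 5 peroxiredoxins, 3 rose, 1 fell and 1 was not called (15.8% higher and 14.6% lower over all tested genes). Prdx4, the peroxiredoxin of the endoplasmic reticulum, rose to 374 ± 21.6 TPM with TGFB1, against 208 ± 0.997 TPM in untreated libraries (log2 fold change 0.84), and Prdx3, a mitochondrial one, fell to 66.9 ± 1.80 TPM, against 90.8 ± 1.73 TPM (-0.44). Prdx2, Prdx5 and Prdx6 are named for their family after their values were seen. Prdx2 rose (log2 fold change 0.39, adjusted p = 0.00305), Prdx5 was at 213 ± 9.97 TPM with TGFB1 and 214 ± 1.69 TPM without, and Prdx6 was called higher (0.37, adjusted p = 0.0441). The Prdx6 call was lost in 8 of 16 alternatives, among them the fits without TGFB1 replicate 2 or any untreated replicate (adjusted p up to 0.130), and its log2 fold change was 0.24 without TGFB1 replicate 1.

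Over the whole thioredoxin and peroxiredoxin list, 23 of 23 genes were tested and 5 rose and 4 fell (15.8% and 14.6% over all tested genes). The list's median log2 fold change was -0.014. Besides the peroxiredoxins, Msrb1, a selenoprotein that repairs oxidised methionine, rose to 69.0 ± 2.89 TPM, against 51.0 ± 4.33 TPM. Txnip, which binds and inhibits thioredoxin, fell to 48.6 ± 6.13 TPM with TGFB1, against 81.7 ± 11.8 TPM without (log2 fold change -0.74). After rescaling 8 members were higher, and without TGFB1 replicate 2 or untreated replicate 2 or 3 it was 3.

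**Figure D4:**
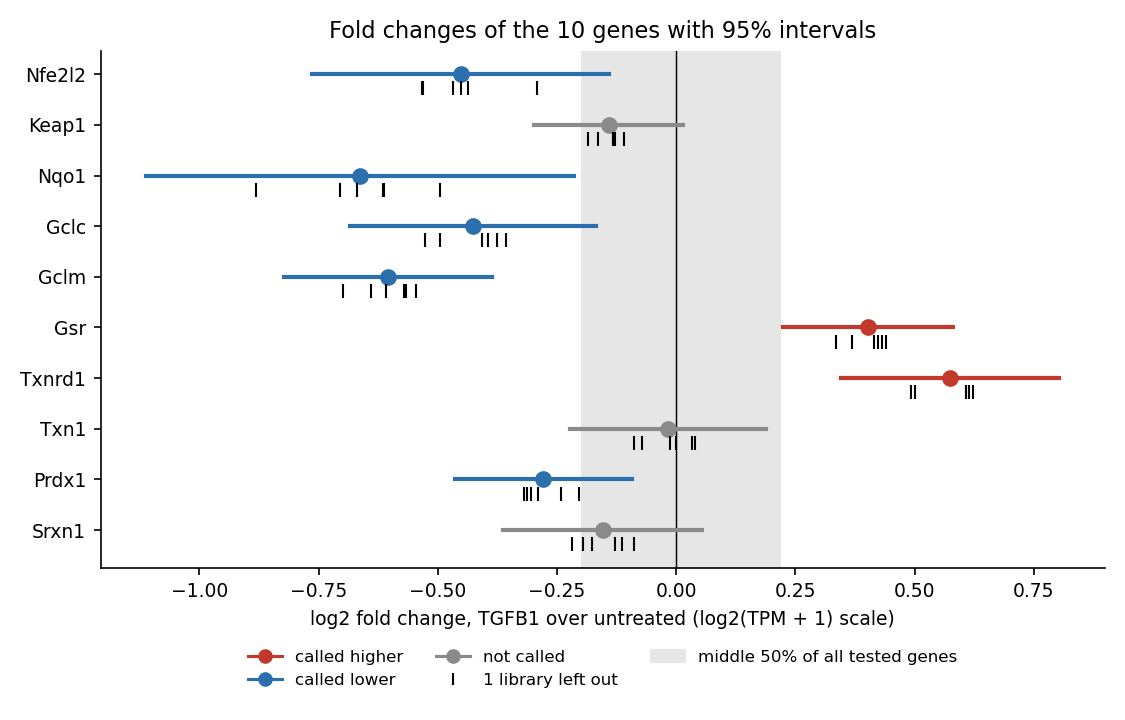
Log2 fold change (TGFB1 over untreated, x axis) of each gene with its 95% interval from limma; black ticks are the fits with 1 library left out and the grey band holds the middle 50% of all tested genes. All 7 called genes lie outside the band in every such fit, from Nqo1 at -0.66 to Txnrd1 at 0.57, with Prdx1 the nearest to it, and Nfe2l2 moves to -0.29 without TGFB1 replicate 1.

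The order of the 10 genes by abundance is a comparison of levels per transcript length. In TGFB1 libraries the means ran from Prdx1 (619 TPM) through Txn1 (258), Txnrd1 (199), Gclm (110.2), Nfe2l2 (104), Gsr (92.3), Srxn1 (48.2), Gclc (37.8) and Keap1 (35.7) to Nqo1 (15.1 TPM). In untreated libraries Gclm at 169 TPM and Nfe2l2 at 141 TPM stood above Txnrd1 at 133 TPM, and the other 7 kept their places. Neighbours whose libraries overlapped in level were Gclm and Nfe2l2, Nfe2l2 and Gsr, and Gclc and Keap1 with TGFB1, and Nfe2l2 and Txnrd1, and Srxn1 and Gclc, without it. The ratio of Nfe2l2 to Keap1 was 2.17, 3.37 and 3.26 in TGFB1 libraries and 3.44, 3.77 and 3.50 in untreated ones. TGFB1 replicate 1 was the treated library farthest from the untreated mean for Nfe2l2, Gsr, Txnrd1 and Prdx1, 4 of the 7 called genes. It was the highest or the lowest of the treated libraries for 9 of the 10 genes.

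Further NRF2 targets, a list of 28 genes with 25 tested, held 12 that fell and 3 that rose (14.6% and 15.8% over all tested genes). The list's median log2 fold change was -0.28. The 6 lists share members, so their counts do not add up: Slc7a11, Gstm1, Taldo1 and 2 other transferase genes that were called here are counted in the glutathione or NADPH list too. Over all lists 126 distinct genes were listed and 111 tested, of which 34 fell and 21 rose. Among the called genes of the further targets list, Ephx1, the microsomal epoxide hydrolase gene, had the largest fall. Its level was 168 ± 53.3 TPM with TGFB1, against 488 ± 42.7 TPM without (log2 fold change -1.59, limma adjusted p = 0.00436). Without TGFB1 replicate 1 the log2 fold change of Ephx1 was -1.29. Fth1, the ferritin heavy chain gene, fell to 4027 ± 750 TPM, against 8612 ± 453 TPM, and Slc48a1, a heme transporter gene, to 154 ± 35.97 TPM, against 335 ± 8.40 TPM. Hmox1, the heme oxygenase gene and a classic NRF2 target, is named for that role after its values were seen. It was at 407, 331 and 302 TPM in TGFB1 libraries and 673, 552 and 698 TPM in untreated ones, and fell (log2 fold change -0.89, adjusted p = 0.00430). The export pump gene Abcc4 went the other way and rose to 22.5 ± 2.71 TPM, against 6.67 ± 0.525 TPM (log2 fold change 1.61). The count that fell was 9 to 12 in all alternatives, and the count that rose was 1 with no filter and without TGFB1 replicate 2 or untreated replicate 1 or 2.

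NADPH feeds both reductases. Of 17 listed genes of its supply 16 were tested, and 5 fell and 2 rose (14.6% and 15.8% over all tested genes). The list's median log2 fold change was -0.03. Taldo1, of the pentose phosphate pathway, fell to 918 ± 208 TPM with TGFB1, against 1834 ± 49.9 TPM without. G6pdx (log2 fold change 0.08, limma adjusted p = 0.536) and Pgd (0.07, 0.549), of the NADPH-making steps of that pathway, were not called. Tkt was not called either (-0.11, adjusted p = 0.172), and Pgls rose (0.27, adjusted p = 0.0338). G6pdx, Pgd, Tkt and Pgls are named for their pathway after their values were seen. The cytosolic isocitrate dehydrogenase gene Idh1 fell to 165 ± 19.8 TPM, against 242 ± 9.48 TPM. Mthfd1, of the cytosolic folate pathway, fell to 67.7 ± 0.602 TPM, against 91.6 ± 5.45 TPM, and Mthfd2l, of the mitochondrial one, rose to 42.8 ± 8.92 TPM, against 24.2 ± 1.55 TPM. The count that rose was 4 without TGFB1 replicate 1 and 1 with no filter, without a variance trend, or without any of the other 5 libraries.

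Among genes that make or remove superoxide and peroxide, 10 of 17 were tested, and 3 fell and 2 rose (14.6% and 15.8% over all tested genes). Sod3, the extracellular superoxide dismutase, was at 0.38, 0.84 and 0.91 TPM with TGFB1 and 5.23, 6.07 and 8.49 TPM without, and Sod2, the mitochondrial one, averaged 18.6 ± 1.37 TPM with TGFB1 and 29.1 ± 1.32 TPM without. For Sod2, 26.6% of 31-base words occur in another gene. Nox4, an NADPH oxidase known as a TGFB1 target in fibroblasts, was at 2.66, 1.74 and 1.45 TPM with TGFB1 and 0.61, 0.90 and 0.98 TPM without. Its call (log2 fold change 0.67, adjusted p = 0.0416) was lost in 8 of 15 alternatives, among them the fits without any library other than TGFB1 replicate 3 (adjusted p up to 0.116). The fold changes of Sod3 and Nox4 depended on the pseudocount, from -1.01 to -3.09 for Sod3 and from 0.25 to 1.12 for Nox4, with a pseudocount of 5 and of 0.1.

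**Figure D5:**
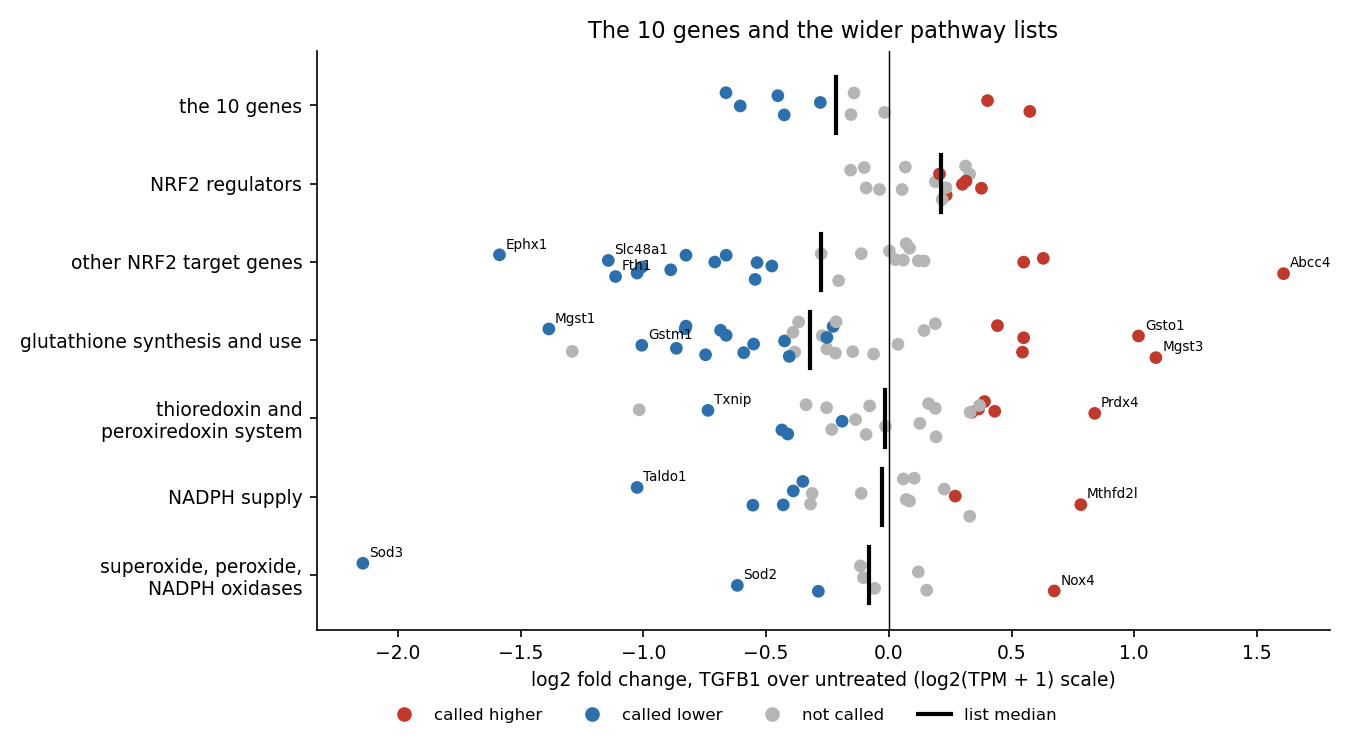
Log2 fold change (TGFB1 over untreated, x axis) of the 10 genes and of the tested genes in 6 wider lists, with 1 gene of the last list not drawn; red and blue points are called higher and lower, grey points are not called and black bars are list medians. Genes named by the rule with a change above 0.6 are labelled, from Sod3 at -2.14 to Abcc4 at 1.61, and the medians run from -0.32 for the glutathione list to 0.21 for the NRF2 regulators.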

How the data were processed

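The deposited table holds 1 value per gene and library, which the authors deposited as a signal on the TPM scale. Tools named in the submitters' processing notes are sleuth 0.30.0 and kallisto 0.44.0, and the build named is GRCm38, all without their roles. Column totals differ, so the values are not plain TPM, and no source used here states the scaling step. Depth is unknown. Libraries were made from 250 ng of RNA, per the labels' protocols.

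Columns were tied to samples by group and replicate number, with 0 sample columns left unused. The 12257 genes averaging 1 TPM or more were fitted as log2(TPM + 1) with limma 3.58.1 in R 4.3.3 (eBayes with trend), two-sided, and called at a Benjamini-Hochberg adjusted p under 0.05. This scale understates the change of low genes. The steps were tested on simulated data.

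The 10 members and the 6 lists were chosen with earlier results of these data known. Named genes are the members, the 4 called genes of each list with the largest change, and those marked as named after their values were seen. Lists are described by counts and medians and were not tested as sets; 1 called gene that the rule names is counted but not reported here. Sharing of 31-base words between genes was computed on GENCODE M21 transcripts with Python 3.11.15; the table shares 35022 gene IDs with that release. The alternatives were 2 pseudocounts, 2 filters, 3 scalings, no variance trend, a replicate block, removal of repeated rows, and leaving out each of the 6 libraries. Gene coordinates are from GENCODE M21 and promoters from RefSeq.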

Additional observations from a re-analysis of the deposited data

How the results depend on the processing

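Of the 10 genes, the calls of Txnrd1, Gsr and Gclm held in all 16 alternatives, and the other 4 called genes kept their direction while losing the call in 5 to 9 of them. Of 160 values for the 10 genes, 26 lost the call and 4 changed sign, all 4 being Txn1, which was not called (-0.017 as deposited, 0.045 under quantile normalization, 0.029 after rescaling, and -0.090 to 0.038 with a library left out). Prdx5, also not called, was at 0.022 under quantile normalization, 0.033 after rescaling and -0.047 to 0.020 with a library left out, and Gss at -0.0069 to 0.071. The number of the 10 genes called lower was 1 with no filter and 3 under quantile normalization, after rescaling and without a variance trend, and 1 to 5 with a library left out, while 2 were called higher in every fit. With no filter, 2 NRF2 regulators, 1 other NRF2 target, 2 glutathione genes, 1 NADPH gene and 1 gene of superoxide and peroxide handling were higher. With a minimum mean of 5 TPM 0 of that last list were higher (limma, 0 also at an unadjusted p under 0.05, with fewer genes of the list passing that filter). Median-of-ratios scaling left 1 NRF2 regulator higher. Under quantile normalization 3 glutathione genes and 1 superoxide and peroxide gene were higher, after rescaling 8 thioredoxin genes were, and without a variance trend 1 NRF2 regulator and 1 NADPH gene were. With a library left out, 1121 to 1992 of all genes were higher and 915 to 1951 lower, the lowest counts both without untreated replicate 3. In the same fits the counts higher were 0 to 5 NRF2 regulators, 1 to 4 other targets, 2 to 5 glutathione genes (7 to 16 lower), 3 to 5 thioredoxin genes, 1 to 4 NADPH genes and 1 to 2 superoxide and peroxide genes. Fits with a library left out hold 5 libraries and fewer degrees of freedom; otherwise the cause was not tested. Same-numbered libraries correlated at 0.198, 0.153 and -0.0384 in their deviations from the group means, so the numbers were not taken as pairs. TGFB1 replicate 3 correlated best with untreated replicate 2, not with its own number. With the replicate block 1906 genes were higher and 1924 lower, 3 NRF2 regulators and 1 superoxide and peroxide gene were higher, the call of Nox4 was lost (adjusted p = 0.0752), and the 7 calls among the 10 genes were all present. Depth is unknown, so the precision of low genes such as Nox4 and Slc7a11 cannot be computed.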
